A study of Mus musculus with 3 samples.

Results

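The genes described here are the collagen chains of mouse embryonic fibroblasts (MEFs). The collagen family was chosen with earlier results of these data known. Its members were set by name alone: every gene whose symbol reads Col, a number, a and a second number. This gave 44 of the 21782 genes in the table, and all 44 are accounted for. The study asked how cohesin variants and their partners are distributed along the genome, and its RNA-seq consists of 3 libraries of asynchronous WT MEFs, 1 from each of 3 clones. The primary MEFs of the study came from E12.5 embryos and were grown in DMEM with 20% FBS. The strain, and whether the clones came from different embryos, is not given in the sources used here. There is 1 condition, so nothing was contrasted. Differences between clones are differences between single libraries and cannot be told apart from differences between cultures or library preparations.

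Collagens are trimers of chains wound around each other. The winding needs glycine, the smallest residue, at regular intervals, which is why collagen sequences read as repeats of Gly-X-Y, where X and Y are often proline. Fibrillar collagens have a long unbroken helix and pack into the fibrils of skin, bone and tendon. Network collagens such as type IV have interrupted helices and form the sheet of basement membranes. Type VI forms beaded filaments, and FACITs (fibril-associated collagens with interrupted triple helices) sit on the surface of fibrils. Other classes are anchored in the plasma membrane, form short-chain networks, carry endostatin-like ends (multiplexins) or anchor the epidermis. Fibroblasts are the main source of fibrillar collagen in connective tissue.

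The difference between classes can be read in the coding sequences. The stretches below were taken from GENCODE M21 transcripts on GRCm38. They are shown because they display the repeat that defines the genes and a short break in a type IV chain. Glycine codons of the repeat are in capitals. The first 4 open the longest unbroken run of their chain.
Col1a1, residues 168 to 197: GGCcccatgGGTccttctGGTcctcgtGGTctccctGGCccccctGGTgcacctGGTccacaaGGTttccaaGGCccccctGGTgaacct
Col1a2, residues 97 to 126: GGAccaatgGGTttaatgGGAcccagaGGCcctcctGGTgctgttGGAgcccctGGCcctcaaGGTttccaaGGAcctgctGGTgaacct
Col3a1, residues 164 to 193: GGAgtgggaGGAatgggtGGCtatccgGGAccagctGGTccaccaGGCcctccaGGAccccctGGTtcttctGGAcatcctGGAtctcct
Col6a3, residues 2165 to 2194: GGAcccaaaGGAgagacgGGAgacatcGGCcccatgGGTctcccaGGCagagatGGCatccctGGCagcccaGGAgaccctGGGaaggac
Col4a1, residues 209 to 234: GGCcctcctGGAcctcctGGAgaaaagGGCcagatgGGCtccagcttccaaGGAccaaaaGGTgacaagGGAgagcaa
In the Col4a1 stretch, 2 residues encoded by ttccaa stand between a complete triplet and the next glycine, so the repeat loses its phase there. In the fibrillar genes the longest run had 338 triplets in Col1a1, 339 in Col1a2 and 344 in Col3a1, and it was shorter in Col24a1 (216) and Col27a1 (217). In the type IV chains it had 39 to 66 triplets, in the beaded filament chains 37 to 87 and in the FACITs 32 to 113. The share of residues inside such runs went from 8.12% in Col12a1 to 85.6% in Col9a3.

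**Figure D1:**
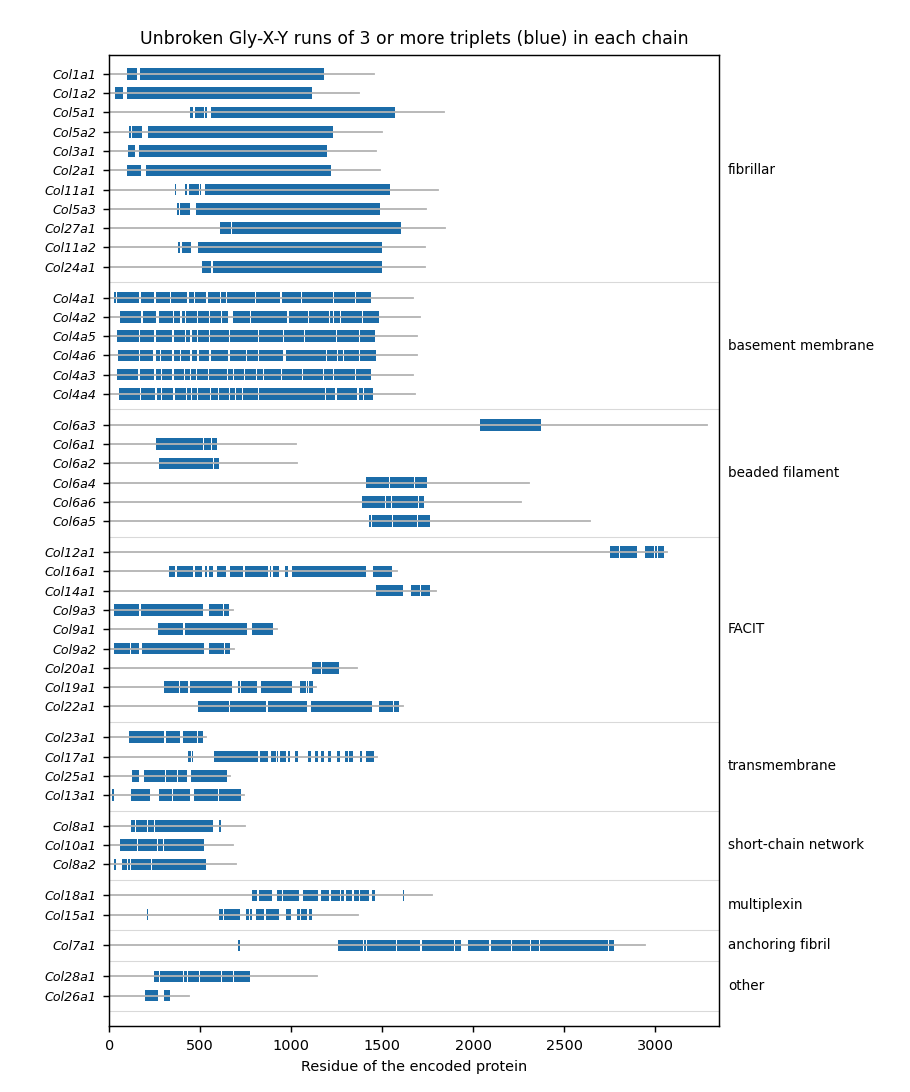
Map of each encoded protein in residues (grey line) with its unbroken Gly-X-Y runs of 3 or more triplets (blue), grouped by class and ordered by level. The longest run of each fibrillar chain has at least 216 triplets, whereas the type IV chains are cut into 23 to 27 runs. Col24a1 and Col27a1 have a further long run, at residues 1220 to 1498 and 1325 to 1603.

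The libraries held 25261357, 22594316 and 24791198 counts in clones 1, 2 and 3. Levels are given as counts per 1000000 counts (CPM) after TMM scaling. A count of 0 allows up to 3 counts, or 0.119 to 0.133 CPM. The biological coefficient of variation over 12608 genes was 0.194, and 0.144 without clone 2. Fibroblast markers were present, with Vim at 4002 ± 202 CPM and Thy1 at 1051 ± 291 CPM (SD, n = 3), but Pdgfra (18.6 ± 7.92 CPM), Dcn (7.73 ± 2.62 CPM) and Lum (2.03 ± 1.19 CPM) were low. All 10 macrophage markers were highest in clone 2, beside 35.3% of all tested genes. Their sum was 1798 CPM there, against 378 and 313 CPM in clones 1 and 3. In bulk RNA, fewer cells of a type and less RNA per cell cannot be told apart.

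In clone 1, 8.09% of all counts fell on collagen chains (95% Wilson interval 8.08 to 8.10). Clone 2 followed with 6.84% (6.83 to 6.85) and clone 3 with 6.71% (6.70 to 6.72). The mean was 7.21% ± 0.763 (SD, n = 3). Per kb of exon, collagen chains took 3.59% ± 0.420 of the summed levels of all genes with a known length. The intervals allow for counting error alone and not for variation between clones. They treat each read as independent. Reads without molecular identifiers are not independent molecules, so the intervals may be too narrow even for counting error. Clone 1 stood above the other clones, which lay close together. Of the 44 genes, 31 (70.5%) reached 1 CPM in all clones, the limit used here for an expressed gene, whereas 52.2% of all genes listed were. Col1a1 ranked first of all genes in CPM, and also in CPM per kb of annotated exon.

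The collagen counts were concentrated in few genes. The 2 type I chains together took 4.20% ± 0.520 of all counts. With the major type IV and type V chains, Col4a1, Col4a2, Col5a1 and Col5a2, these 6 genes held 87.2%, 83.6% and 85.4% of the collagen counts in the respective clones. By class, fibrillar chains held 77.9% ± 1.84 of the collagen counts, basement membrane chains 13.0% ± 0.611, beaded filament chains 3.51% ± 1.39 and FACITs 3.26% ± 0.706 (SD, n = 3). The 4 transmembrane chains held 0.00286% ± 0.00101. Fibrillar and basement membrane shares thus varied little between clones, whereas beaded filament chains went from a low of 2.22% in clone 1 to 4.97% in clone 2, with clone 3 between them at 3.32%.

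**Figure D2:**
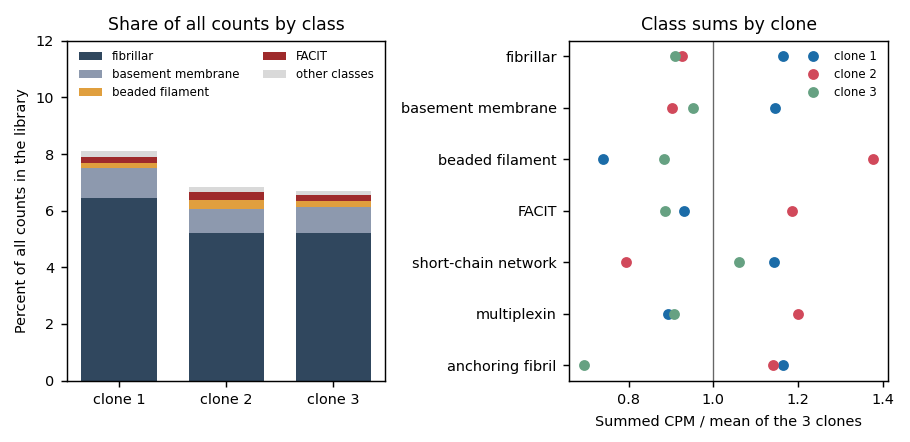
Left, stacked bars give the percent of all counts in each library held by each collagen class. Right, points give the summed CPM of a class in a clone divided by the mean of the 3 clones. Clone 1 has the highest fibrillar and basement membrane sums, and clone 2 the highest beaded filament, FACIT and multiplexin sums.

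Fibrillar chains were the highest class, and all 11 were expressed. Type I collagen is the main fibril of skin, bone and tendon and is built from a pair of alpha1 chains and 1 alpha2 chain. Col1a1 (chr11:94936224-94953042, plus strand) was at 32052, 25940 and 25148 CPM, with the clones here and below in the order 1, 2, 3. Col1a2 (chr6:4504814-4541544, plus strand) was at 16794, 13338 and 13006 CPM. Both chains were highest in clone 1, with a range across clones of 1.27-fold for Col1a1 and 1.29-fold for Col1a2. Col3a1, which forms thin fibrils with type I in soft tissues, was at 2579, 1792 and 2092 CPM.

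Type V chains start fibril assembly and limit fibril diameter. Col5a1 was at 7068, 5994 and 5350 CPM and Col5a2 at 5317, 3820 and 4009 CPM, both highest in clone 1. Col5a3, the less common chain of the type, was at 355, 512 and 291 CPM, highest in clone 2. Col5a2 and Col3a1 lie tail to tail on chromosome 1 with 24614 bp between them. Both were highest in clone 1 and lowest in clone 2. The late-described fibrillar chains were low: Col27a1 was at 50.2, 54.0 and 40.4 CPM and Col24a1 at 3.30, 3.55 and 4.04 CPM. Col24a1 was the only fibrillar gene that did not pass the test between libraries described further on (adjusted p = 0.445, chi-square test).

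Chains known from cartilage were also present in these fibroblasts. Col2a1, the main collagen of cartilage, was at 735, 487 and 724 CPM. Col11a1, which nucleates cartilage fibrils, was at 635, 198 and 488 CPM, a 3.21-fold range with clone 2 apart from the others. Col11a2 was at 18.0, 8.43 and 5.23 CPM, and its mean of 10.5 CPM was 6.83 CPM without clone 1. Col10a1, the collagen of hypertrophic cartilage, was at 33.2, 14.8 and 25.5 CPM. The 3 type IX chains, which coat cartilage fibrils, were low and uneven. Col9a1 had 111, 54 and 8 counts, Col9a2 had 100, 39 and 4 and Col9a3 had 126, 54 and 31 (5.07, 2.39 and 1.23 CPM). The 8 and 4 counts of Col9a1 and Col9a2 in clone 3 lie close to the limit that a count of 0 allows. All 3 were highest in clone 1 and lowest in clone 3, and without clone 1 the mean fell from 2.39 to 1.36 CPM for Col9a1, from 1.97 to 0.944 CPM for Col9a2 and from 2.90 to 1.81 CPM for Col9a3. For Col9a3, 5.03% of read-length windows also match Tcfl5, which overlaps it on the opposite strand.

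Other cartilage markers were measured beside these chains. The cartilage list of 8 summed to 64.3, 62.3 and 55.3 CPM. Of its 6 tested genes 3 were highest in clone 1, 2 in clone 2 and 1 in clone 3. Over all tested genes these shares were 37.7%, 35.3% and 27%. Sox9 was at 9.26, 12.8 and 10.7 CPM and Acan at 45.1, 45.5 and 39.8 CPM, both highest in clone 2, and Matn3 was at 1.41, 1.51 and 2.22 CPM, highest in clone 3. Lect1 had 68, 21 and 1 counts, Comp had 109, 24 and 48 and Hapln1 had 17, 8 and 16, each highest in clone 1. The remaining markers had few counts, with 13, 0 and 0 for Chad and 6, 2 and 0 for Matn1. Of the muscle markers, Myh11 was at 199, 79.9 and 170 CPM and Des at 71.6, 31.1 and 96.5 CPM, both lowest in clone 2 as Col2a1, Col11a1 and Col10a1 were, while Acta2 was at 6639, 6844 and 7082 CPM and Cnn1 at 463, 488 and 472 CPM. The part of these markers in the levels of the cartilage chains was not tested.

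Basement membrane chains showed 1 dominant pair. Col4a1 was at 5901, 4739 and 5053 CPM and Col4a2 at 4543, 3436 and 3655 CPM, and these chains form the type IV collagen found in nearly all basement membranes. Col4a5 was lower, at 287, 284 and 222 CPM, and Col4a6 was at 11.2, 12.7 and 9.66 CPM. Col4a3, a chain of the kidney glomerulus, had 18, 11 and 20 counts, and its partner Col4a4 stayed under 30 counts in total. For Col4a3, 4.66% of read-length windows also match C430014B12Rik, which overlaps it on the opposite strand. The 6 type IV genes lie head to head in pairs in the genome. Col4a3 and Col4a4 lie 71 bp apart on chromosome 1 and both were under 1 CPM. Col4a5 and Col4a6 lie 1308 bp apart on chromosome X, yet Col4a5 was 28.03 ± 1.98 times Col4a6 per kb of exon (SD, n = 3). The first exons of Col4a1 and Col4a2 overlap on opposite strands. The 22 shared bases are shown because reads there cannot be given to either gene without strand (GRCm38.p6, RefSeq, chr8:11312805-11312826, plus strand).
Col4a1 and Col4a2: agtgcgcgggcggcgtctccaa
Endothelial cells also make type IV collagen. Their list of 7 markers summed to 8.01, 11.7 and 13.4 CPM, most of it Kdr at 6.56, 9.49 and 12.4 CPM. Tie1 and Cldn5 were at 0 in every clone, and Pecam1, Cdh5, Tek and Vwf were detected below 1 CPM. The sum was lowest in clone 1, where Col4a1 and Col4a2 were highest. The part of endothelial cells in the type IV levels was not tested.

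Beaded filament chains were highest in clone 2. The type VI molecule joins 1 each of the alpha1, alpha2 and a larger chain, mostly alpha3. Col6a1 was at 697, 1263 and 791 CPM, Col6a2 at 377, 826 and 419 CPM and Col6a3 at 753, 1318 and 975 CPM. In each of these genes clone 2 lay above both other clones. Col6a4 had 11, 37 and 8 counts and its mean of 0.800 CPM was 0.380 CPM without clone 2. Col6a5 and Col6a6 had 7 and 9 counts in total, and 3.99% to 4.22% of their read-length windows match each other. The macrophage markers moved with clone 2 as well, 10 of 10 highest there with none at 0, and 7 of 10 fibroblast markers were also highest in clone 2. Of all tested genes, 35.3% were highest in clone 2. Both marker lists were chosen with earlier results of these data known. The part of these markers in the type VI levels was not tested.

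Among the FACITs, Col12a1 and Col16a1 were the main genes. Col12a1, found in dense connective tissue, was at 1555, 2222 and 1616 CPM, and Col16a1 was at 574, 510 and 424 CPM. Col14a1, often found beside Col12a1, was at 13.4, 14.6 and 13.2 CPM and had the smallest spread of the tested chains, a coefficient of variation of 5.59% (adjusted p = 0.432, chi-square test). Col20a1 was at 2.82, 1.20 and 1.35 CPM, and Col19a1 had 45, 19 and 41 counts. Col22a1 had 17 counts in all.

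The remaining classes were sparse apart from a few genes. Of the transmembrane chains only Col23a1 was expressed, at 1.13, 2.22 and 1.19 CPM, whereas Col17a1 and Col25a1 had 18 counts each in total and Col13a1 had 1. Of the short-chain network genes, Col8a1, a chain of vessel wall and corneal networks, was at 699, 497 and 658 CPM and Col8a2 at 14.6, 6.70 and 9.70 CPM. All 3 short-chain genes, Col10a1 included, were highest in clone 1 and lowest in clone 2. Of the 4 tested muscle markers, 2 were lowest in clone 2 (Myh11 and Des) and 2 in clone 1 (Acta2 and Cnn1). Their part in the short-chain levels was not tested. Of the multiplexins, Col18a1, the precursor of endostatin, was at 206, 240 and 200 CPM. Col15a1 was at 16.2, 58.2 and 25.4 CPM, so that its mean of 33.3 CPM was 20.8 CPM without clone 2. As for Col12a1 and the type VI chains, the clone with the most Col15a1 and Col18a1 was also the one with the highest macrophage sum (1798 CPM), whose part was not tested. Col7a1, which forms the anchoring fibrils below the epidermis, was at 931, 912 and 555 CPM and was lowest in clone 3. The epithelial marker list summed to 3.42, 3.64 and 7.09 CPM, most of it Krt18 at 2.78, 2.97 and 5.31 CPM. The epidermal markers Krt5 and Krt14 had 1, 0 and 4 counts and 1, 0 and 5 counts. The part of epithelial cells in the Col7a1 level was not tested. Col28a1 was at 1.73, 1.15 and 1.43 CPM, and Col26a1 had 4 counts in total. Altogether 13 genes did not reach 1 CPM in every clone, and 8 of these had 1 to 23 counts in total.

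**Figure D3:**
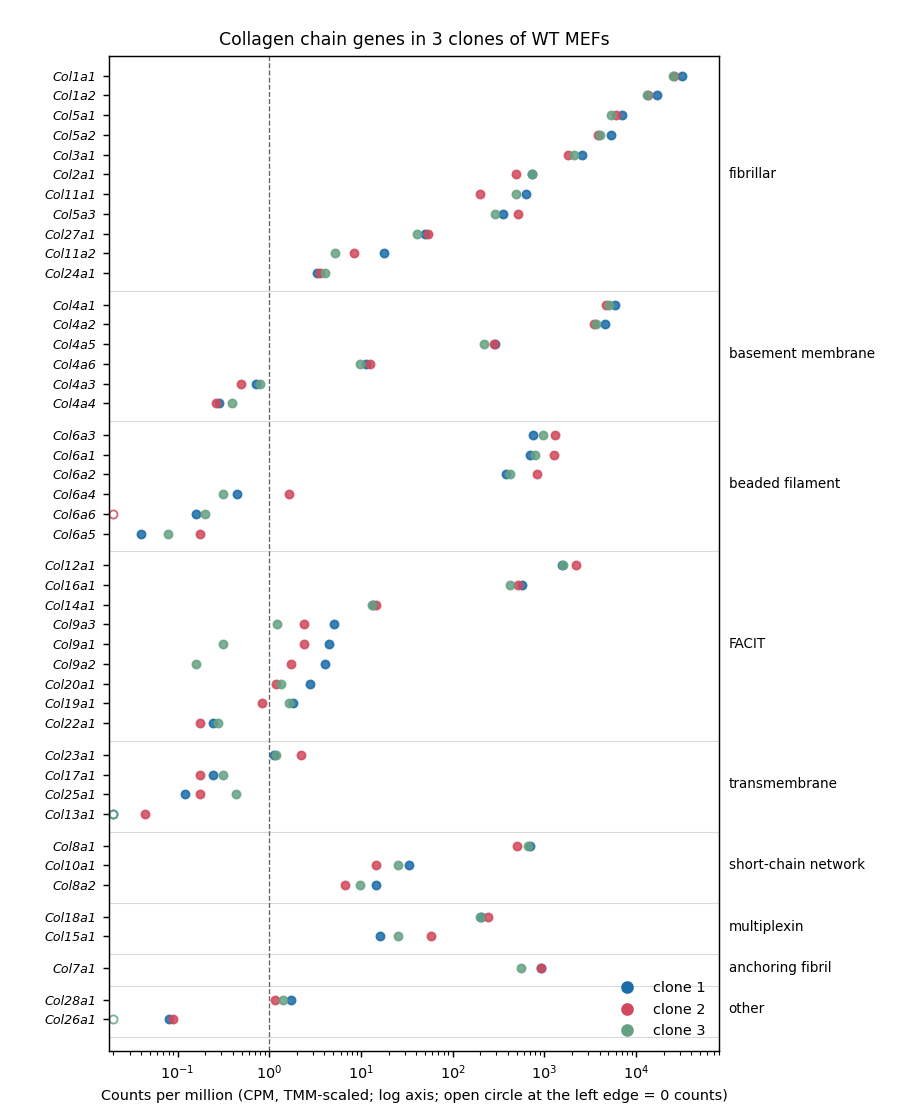
CPM of each of the 44 collagen genes in clones 1, 2 and 3 (points, log axis), grouped by class. The dashed line marks 1 CPM and open circles at the left edge are clones with 0 counts. Levels span from Col13a1, with 1 count in total, to Col1a1 at 25148 to 32052 CPM.

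Chains that share a molecule, and Col3a1 with Col1a1, whose products share fibrils, were compared per kb, since longer genes collect more counts. Per kb of all annotated exons, Col1a1 was 3.65 ± 0.0352 times Col1a2 (SD, n = 3). The exons of Col1a2 add up to 12426 bp, whereas its main coding transcript, the one with the longest open reading frame, has 5348 nt. Per kb of such transcripts the same ratio was 1.74 ± 0.0168, so its size depends on the length used while its spread between clones did not exceed 1.02-fold. Col4a1 was 1.20 ± 0.0420 times Col4a2 per kb of exon, also with a narrow range across clones. Col5a1 was 1.59 ± 0.155 times Col5a2, or 1.11 ± 0.108 times per kb of transcript. Col5a3 was 0.0790 ± 0.0240 times Col5a1, and this ratio was highest in clone 2.

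In type VI collagen, Col6a1 was 3.34 ± 0.372 times Col6a2 per kb of exon and 1.69 ± 0.188 times per kb of transcript. Col6a3 was 0.410 ± 0.0369 times Col6a1 per kb of exon, although in counts it was 1.12 ± 0.101 times Col6a1. Col8a1 was 36.3 ± 7.89 times Col8a2 per kb of exon, so these partners were far from equal in every clone. Col3a1 was 0.0519 ± 0.00500 times Col1a1. For the type IX chains, Col9a1 was on average 0.915 ± 0.278 times Col9a2 per kb of exon but 1.14 ± 0.348 times per kb of transcript. By clone the ratio was 0.678, 0.846 and 1.22 per kb of exon and 0.847, 1.06 and 1.53 per kb of transcript. Which chain was the higher thus depended on the clone as well as on the scale. Per kb of exon Col9a1 was 0.542 ± 0.303 times Col9a3. In clone 3 the type IX ratios rest on 8 counts of Col9a1, 4 of Col9a2 and 31 of Col9a3. The ratios of Col5a3 to Col5a1 and of Col4a5 to Col4a6 were chosen after the levels had been seen.

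**Figure D4:**
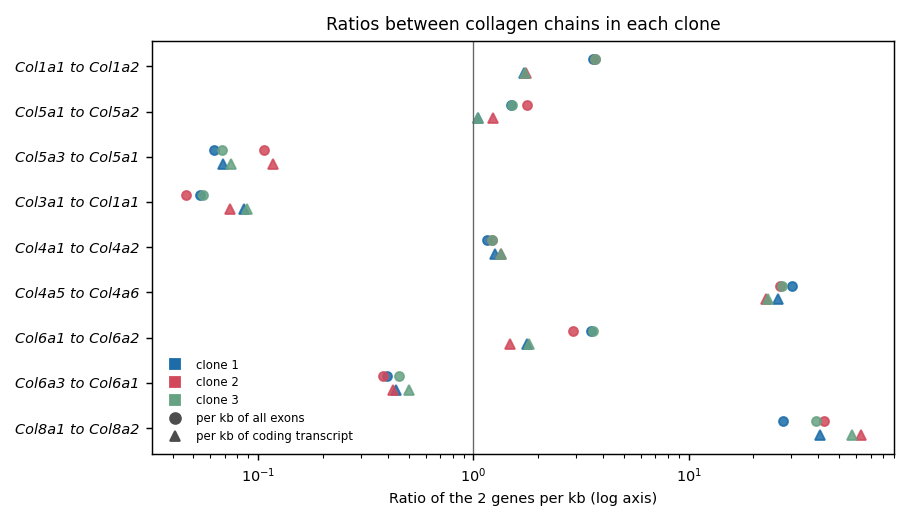
Ratio between 2 collagen chains in each clone on a log axis, per kb of all annotated exons (circles) or per kb of the main coding transcript (triangles). Col1a1 to Col1a2 and Col4a1 to Col4a2 are nearly equal between clones on either scale, while Col8a1 lies far above Col8a2.

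Whether the clones differed was asked with a chi-square test of the 3 counts of each gene against library size, adjusted over 12608 genes with at least 30 counts in total. This test sees counting error only. Of the 36 collagen genes tested, 32 (88.9%) differed, beside 62.2% of all tested genes, and the largest adjusted p among them was 0.0247 (Col19a1). The other 4 were Col24a1, Col4a3, Col14a1 and Col28a1. Many of these genes have large counts, which lets the test call small differences, so the size of the range was counted too. In 12 of the 36 (33.3%) the highest clone was at least 2-fold the lowest, beside 10.6% of all tested genes. The count was 5 of 36 without clone 1, beside 5.71% of all genes tested then. It was 5 of 35 without clone 2, beside 2.63%, and 11 of 36 without clone 3, beside 8.55%. Of the 12, 5 were FACITs, 2 fibrillar (Col11a1 and Col11a2), 2 beaded filament (Col6a2 and Col6a4), 2 short-chain (Col8a2 and Col10a1) and 1 a multiplexin (Col15a1). Among the 26 collagen genes averaging 10 CPM or more the median coefficient of variation was 18.5%, against 9.16% over 8390 genes at that level.

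The clone in which each gene was highest was also counted. Clone 1 was highest in 22 of the 36 genes, clone 2 in 12 and clone 3 in 2, beside 37.7%, 35.3% and 27% of all tested genes. Without library scaling the counts were 20, 13 and 3. Of the fibrillar genes 8 of 11 were highest in clone 1, and of the FACITs 6 of 8. All 4 tested beaded filament genes and both multiplexins were highest in clone 2. These are descriptions of 3 libraries, and genes of a class are not independent.

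**Figure D5:**
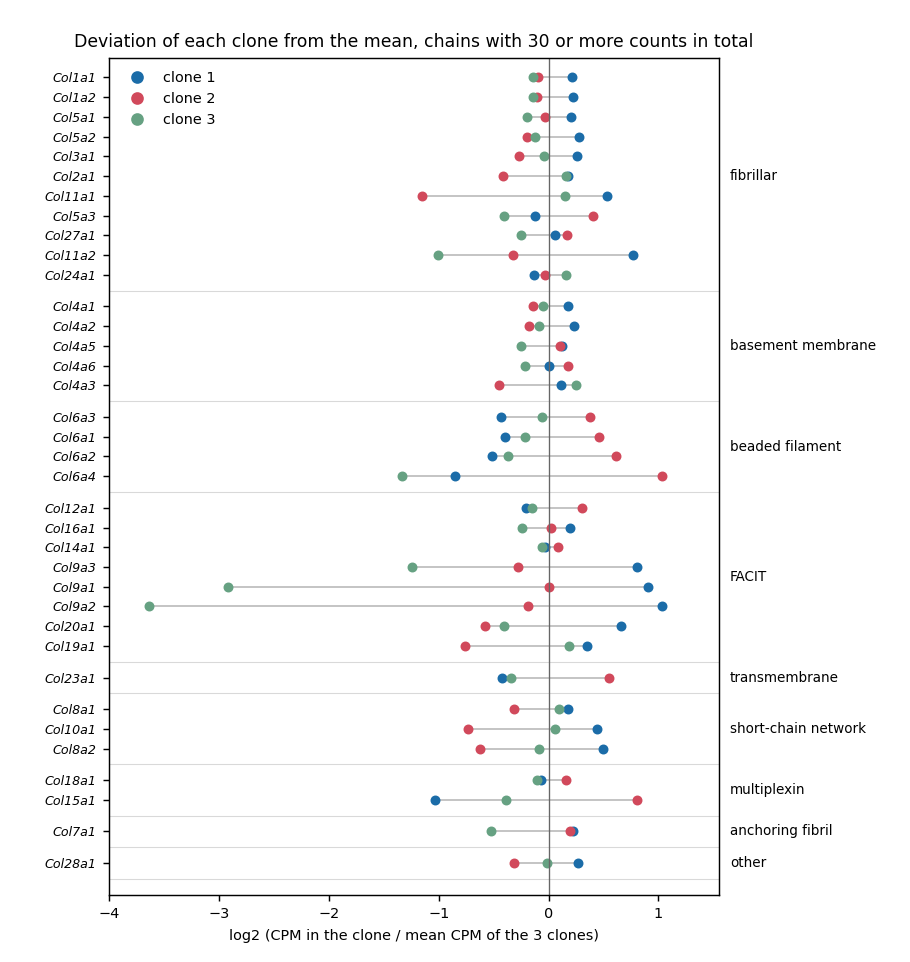
Deviation of each clone from the mean of the 3 clones, as log2 of the CPM ratio, for the 36 collagen genes with at least 30 counts in total. Grey lines join the lowest and highest clone. Most fibrillar, basement membrane and short-chain genes have clone 1 on the right, and the beaded filament genes have clone 2 on the right.

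The genes that process collagen were given as a list with roles in modification, cleavage, cross-linking and reception. P3h1, P3h2, P3h3 and P3h4 were on it but were not found under the symbols searched, which left 33 genes. Of these, 30 were expressed, beside 52.2% of all genes listed. Of 31 tested, 25 differed between clones, beside 62.2% of all tested genes, and 2 had a 2-fold range, beside 10.6%. Clone 1 was highest in 17, clone 2 in 12 and clone 3 in 2, beside 37.7%, 35.3% and 27% of all tested genes. In modification and folding, Serpinh1, the chaperone of procollagen, was at 4591 ± 330 CPM, P4hb, a subunit of prolyl hydroxylase, at 2285 ± 161 CPM and Fkbp10 at 1086 ± 7.90 CPM (SD, n = 3). These 3 were highest in clone 2, although Fkbp10 did not pass the test (adjusted p = 0.312, chi-square test). For removal of propeptides, Bmp1 was at 948 ± 167 CPM, its enhancer Pcolce at 936 ± 112 CPM and Tll1 at 269 ± 25.9 CPM. Among the cross-linking oxidases, Loxl2 was at 2541 ± 481 CPM, Lox at 2166 ± 230 CPM and Loxl1 at 794 ± 39.3 CPM, each highest in clone 1. Of the collagen receptors, Itgb1 was at 4522 ± 284 CPM and Ddr2 at 431 ± 5.35 CPM. Itga11, an integrin chain for fibrillar collagen, was at 589, 201 and 314 CPM. It was highest in clone 1 and lowest in clone 2.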

How the data were processed

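PolyA-selected RNA of 3 WT MEF clones was sequenced on an Illumina HiSeq2000 or HiSeq2500. The authors aligned single-end reads of 86 nt by TopHat 2.0.0 (with Samtools 0.1.16 and Bowtie 0.12.7), and deposited raw counts per gene from HTSeq, with no normalization. The methods name mm10, whereas the submitters' processing notes name mm9. The HTSeq version, annotation and strand setting are not given in the sources used here, so overlapping genes may share reads.

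CPM used TMM-scaled library sizes (edgeR 4.0.16, R 4.3.3). Clones were compared per gene with a chi-square test (2 degrees of freedom) and Benjamini-Hochberg adjustment at 0.05, among genes with at least 30 counts in total. In data simulated with counting error only, 200 of 12608 genes were changed 2-fold, and the test recovered 94% of them with 10 false calls. No variation between clones was simulated, so false calls under such variation were not measured. Shares have 95% Wilson intervals. Exon lengths, positions and coding sequences came from GENCODE M21 (GRCm38), in which 44 of 44 collagen genes were found by symbol. Sharing was searched in 86-nt windows with up to 2 mismatches. The definition of an unbroken Gly-X-Y run, any residue at X and Y and at least 3 triplets, was revised after its output had been seen. Statistics used Python 3.11.15 with scipy 1.17.1 and Biopython 1.88.

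Genes are named with every clone's value where at 1 CPM or more in every clone, and otherwise with counts where at least 30 in total. The processing list is given by counts with the values of the 3 highest genes per role. The collagen family and the lists were chosen with earlier results of these data known. Alternatives were DESeq2 1.42.0 size factors, unscaled totals, other count filters, thinned counts, other lengths and leaving out each clone. Marker lists of muscle and bone were also measured: they summed to 7545 ± 241 CPM, most of it Acta2 (6855 ± 222 CPM), and to 27.1 ± 2.49 CPM (SD, n = 3).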

Additional observations from a re-analysis of the deposited data

How the results depend on the processing

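The 31 expressed chains and the 32 chains that differed between clones kept within 1.5 times those counts under other scalings, other count limits and with each clone left out (26 to 41 expressed and 26 to 32 that differed). Thinning the counts was run for the differences only and gave 32. The count of chains with a 2-fold range was 5 to 11 when 1 clone was left out, and the share over all tested genes was then 2.63% to 8.55%, against 10.6% with all clones. The levels of the 31 expressed chains moved by less than the spread between clones in all 62 rescaled values. Leaving out 1 of 3 clones cannot move a mean by more than that spread, and it moved Col11a2, Col9a3 (both without clone 1) and Col15a1 (without clone 2) by over 1.5 times. Length mattered most. Per kb of exon, the collagen share was 3.59%, and of that the basement membrane share was 14.7% and the FACIT share 2.20%. Per kb of the main coding transcript, the ratios were 1.74 (Col1a1 to Col1a2), 1.11 (Col5a1 to Col5a2), 1.32 (Col4a1 to Col4a2), 1.69 (Col6a1 to Col6a2), 0.454 (Col6a3 to Col6a1), 53.7 (Col8a1 to Col8a2) and 0.0827 (Col3a1 to Col1a1). In counts not divided by length they were 1.93, 1.41, 1.35, 1.75, 1.12, 63.3 and 0.0776 in the same order, and Col9a1 to Col9a2 was 1.498. Col6a3 to Col6a1 thus changed direction between levels per kb and counts. The mean of Col9a1 to Col9a2, at 1.14 per kb of the main coding transcript, turned on both alternatives. Per kb, the direction of that ratio also differed between clones. No paired analysis was possible because there is 1 group. Chains under 30 counts in total are too shallow for their clones to be compared.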

Other observations

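Codon use was looked at after the levels had been seen. Glycine was encoded by GGT in 50.6% of the glycine codons of Col1a1, 49.9% of those of Col1a2 and 39.9% of those of Col3a1, beside 17.7% over all other coding genes. Of the 44 collagen genes, 37 lay above that value for GGT, 39 above the corresponding 26.3% for GGA and 2 above the 32.4% for GGC. By class, the median GGT share was 34.1% in fibrillar, 21.4% in basement membrane and 18.5% in beaded filament chains. Spearman's rho between the GGT share and CPM per kb of exon was 0.407 over the 44 genes, 0.791 over the 11 fibrillar genes and 0.143 over the 33 others, and for the proline codon CCT it was 0.379 over the 44 genes. Base composition was not measured, and genes of a family are not independent, so the values are given as a description.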
